A study of Mus musculus with 4 samples.

Results

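Transcript levels of 10 Kruppel-like factor genes, Klf2, Klf3, Klf4, Klf5, Klf6, Klf7, Klf9, Klf10, Klf12 and Klf13, were examined in 4 individually sequenced chimeric mouse embryos. The members were taken by symbol from the 39179 Ensembl genes listed for each embryo, and all 10 were found and passed the filter on low counts. Embryonic stem cells (ESCs) carrying doxycycline-inducible FLAG-tagged LHX1, a LIM homeodomain transcription factor, had been placed into host embryos at the 8-cell stage, so each embryo also holds host cells from an ARC x RLZRFP cross. In 2 embryos the ESCs carried FLAG-Lhx1, and in 2 they carried FLAG-Lhx1-mt, an altered form also labelled with a deletion sign; no source used here says what was altered. The ESCs of both groups had been cultured in 2i, and all 4 embryos were exposed to doxycycline through the drinking water of the mothers (2 mg/mL, with 5% sucrose) for 24 hours. Collection was at E8.5, and the labels give the stage as E7.75, since development lagged by about a day. No uninduced embryo was analysed here, and no source used here names the promoter or the number of ESC clones.

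Kruppel-like factors (KLFs) bind GC-rich boxes and CACCC elements through a C-terminal array of zinc fingers, and they differ mainly in the N-terminal parts that recruit activators or repressors. KLF2, KLF4 and KLF5 overlap in holding mouse ESCs in the naive state, and KLF4 is also a factor of epithelial differentiation. KLF3, KLF8 and KLF12 bind the repressor CtBP. KLF9, KLF10, KLF11, KLF13, KLF14 and KLF16 carry sequences that bind the repressor SIN3A. Several Klf genes, Klf2, Klf4, Klf6 and Klf10 among them, are also switched on quickly by growth factors or stress.

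The window from 250 bases before to 50 bases after the transcription start was found in RefSeq (GRCm38.p6) for 8 of the 10 members. Those of Klf4, Klf2 and Klf12 are shown because Klf4 was the member called between the groups, Klf2 had a fold of like size in the same direction, and Klf12 one in the other direction. They are printed 5′ to 3′ on the strand of the gene. Capitals mark the GC box GGGCGG, the element CACCC and the MEF2 box, each on either strand.
Klf4: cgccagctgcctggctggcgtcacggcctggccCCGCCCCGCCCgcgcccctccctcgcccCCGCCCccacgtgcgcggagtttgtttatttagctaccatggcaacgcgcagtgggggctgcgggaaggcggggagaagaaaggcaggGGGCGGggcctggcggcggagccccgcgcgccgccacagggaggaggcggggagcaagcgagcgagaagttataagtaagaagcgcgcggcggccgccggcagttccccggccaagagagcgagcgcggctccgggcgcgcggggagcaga
Klf2: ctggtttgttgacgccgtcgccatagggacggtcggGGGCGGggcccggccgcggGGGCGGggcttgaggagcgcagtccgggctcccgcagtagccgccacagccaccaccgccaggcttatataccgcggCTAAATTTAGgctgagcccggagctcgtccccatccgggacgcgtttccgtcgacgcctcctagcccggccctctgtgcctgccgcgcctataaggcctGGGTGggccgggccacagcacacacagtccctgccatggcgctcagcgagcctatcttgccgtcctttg
Klf12: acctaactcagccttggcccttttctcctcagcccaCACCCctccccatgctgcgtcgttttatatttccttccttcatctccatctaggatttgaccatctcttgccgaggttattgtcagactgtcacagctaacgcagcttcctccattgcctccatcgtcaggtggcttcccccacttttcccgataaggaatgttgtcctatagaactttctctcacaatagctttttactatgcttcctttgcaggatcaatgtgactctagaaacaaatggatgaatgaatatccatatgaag

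The window of Klf4 (chr4:55532426-55532725, minus strand) held 4 matches of the GC box, of which the first pair overlap by a base, and none of CACCC. That of Klf2 (chr8:72318812-72319111, plus strand) held 2 GC boxes, 1 CACCC and 1 MEF2 box, and that of Klf12 (chr14:100149747-100150046, minus strand) held 1 CACCC and no GC box. The start that RefSeq gives for Klf12 lies inside the gene as GENCODE draws it, with a 5′ end at 100284679. The Klf12 window may therefore not be a promoter. Its GC content and matches are not comparable with those of Klf4 and Klf2. GC made up 74.3% of the Klf4 window, 69.3% of that of Klf2 and 45.7% of that of Klf12, against a median of 52.7% over all 32851 windows. Of those windows, 35.7% held a GC box, 57.5% CACCC and 3.19% a MEF2 box. Neither TAATTA, a homeodomain core found in 5.29% of windows, nor the CArG box of serum response factor, found in 1.63%, was present in the windows of the 8 members. A match describes the letters only.

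The 4 libraries held 21267116 to 30434442 counts. Where values of a group are given as a pair, replicate 1 comes first. Values are counts per 1000000 (CPM), scaled by the TMM factors of edgeR, at which 3 counts correspond to 0.0959 to 0.153 CPM. Each log2 fold is that of FLAG-Lhx1 over FLAG-Lhx1-mt, with the standard error (SE) from edgeR's quasi-likelihood test, and a gene was called at a Benjamini-Hochberg adjusted p under 0.05 over the 15822 genes tested. Of these, 976 (6.17%) were called, 415 (2.62%) higher and 561 (3.55%) lower in FLAG-Lhx1; upper-quartile scaling called 472 higher and 395 lower. Lhx1 itself had 129 and 114 CPM in FLAG-Lhx1 against 126 and 98.5 CPM in FLAG-Lhx1-mt (log2 fold 0.11 ± 0.16, SE, edgeR adjusted p = 0.733), and its counts mix transgene and endogenous transcripts.

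Klf4 was higher in FLAG-Lhx1 embryos than in FLAG-Lhx1-mt embryos, and it was the 1 listed gene that passed the test. The call of 1 of 10 members is read against the 6.17% of all tested genes that were called, and the count itself is close to that share. Klf2 had a higher mean in FLAG-Lhx1, and Klf5 and Klf12 a lower one, by folds of like size at less than 2 CPM, but none of these passed after adjustment. These 4 members had an unadjusted p under 0.05 in edgeR, as did 21.3% of the tested genes, and all 4 had a log2 fold of at least 1 in size, as did 10.2%. The other 6 members lay within a log2 fold of -0.52 to 0.04. The median log2 fold of the 10 members was -0.15, and that of all tested genes 0.01.

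**Figure D1:**
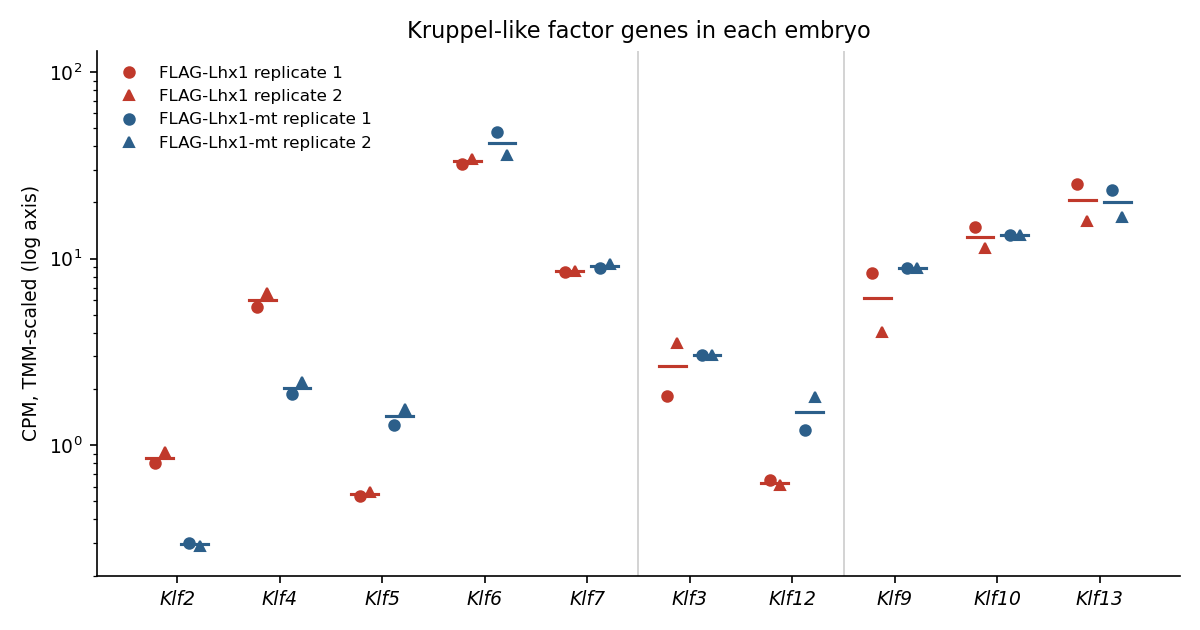
TMM-scaled CPM (log axis) of the 10 Klf genes in each embryo, with circles for replicate 1, triangles for replicate 2 and bars for group means; vertical lines separate the activators, the CtBP-binding and the SIN3A-binding factors. Klf4 sits at 5.50 and 6.51 CPM in FLAG-Lhx1 and at 1.89 and 2.17 CPM in FLAG-Lhx1-mt, while Klf10 and Klf13 overlap between the groups.

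Among the activators, Klf4 (ENSMUSG00000003032, chromosome 4 at 55527143 to 55532466 of GRCm38) had 144 and 128 counts in FLAG-Lhx1 against 44 and 68 counts in FLAG-Lhx1-mt. In the same order these correspond to 5.50, 6.51, 1.89 and 2.17 CPM. Both FLAG-Lhx1 embryos lay above both FLAG-Lhx1-mt embryos, and the 95% Poisson intervals of the counts, 4.64 to 6.47 and 5.43 to 7.74 CPM against 1.37 to 2.54 and 1.69 to 2.76 CPM, did not meet between the groups. These intervals cover the sampling of reads only. The libraries hold no molecular identifiers, so amplified copies count separately and the intervals can be too narrow. Means were 6.004 ± 0.719 CPM and 2.03 ± 0.20 CPM (SD, n = 2 each), and edgeR gave a log2 fold of 1.56 ± 0.33 (SE) with an adjusted p of 0.0125. Leaving out FLAG-Lhx1 replicate 2 ended the call (log2 fold 1.44, edgeR adjusted p = 0.0549).

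Klf2 (ENSMUSG00000055148, chromosome 8 at 72319033 to 72321656), a factor of naive ESCs and, later, of endothelium under flow, was low. It had 21 and 18 counts in FLAG-Lhx1 against 7 and 9 counts in FLAG-Lhx1-mt, or 0.802, 0.916, 0.301 and 0.288 CPM. The groups did not overlap, but the Poisson intervals did, with 0.496 to 1.23 and 0.543 to 1.45 CPM against 0.121 to 0.619 and 0.132 to 0.546 CPM. The log2 fold was 1.53 ± 0.69 (SE) and did not pass (edgeR adjusted p = 0.217).

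Klf5 (ENSMUSG00000005148, chromosome 14 at 99298691 to 99315036), which acts in ESCs, trophectoderm and gut epithelium, differed in the other direction. Its counts were 14 and 11 in FLAG-Lhx1 against 30 and 49 in FLAG-Lhx1-mt, or 0.534, 0.560, 1.29 and 1.57 CPM. Both FLAG-Lhx1 embryos lay below both FLAG-Lhx1-mt embryos. The Poisson intervals were 0.292 to 0.8965 and 0.279 to 1.00 CPM in FLAG-Lhx1 against 0.869 to 1.84 and 1.16 to 2.07 CPM in FLAG-Lhx1-mt. Those of FLAG-Lhx1 met that of FLAG-Lhx1-mt replicate 1 and not that of replicate 2. The log2 fold was -1.38 ± 0.56 (SE, edgeR adjusted p = 0.166), which does not pass.

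The Klf4 and Klf5 values can also be set against each other inside an embryo, where scaling between libraries plays no role. The ratio of Klf4 to Klf5 counts was 10.3 and 11.6 in FLAG-Lhx1 against 1.47 and 1.39 in FLAG-Lhx1-mt. The ratio was chosen after the values were seen and is a description of these embryos, with no test.

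Klf6 (ENSMUSG00000000078, chromosome 13 at 5861482 to 5870394), a widely expressed activator, was the highest of the 10 in every embryo, in CPM and in CPM per kilobase of exon. It had 32.2 and 34.1 CPM in FLAG-Lhx1 against 47.7 and 36.1 CPM in FLAG-Lhx1-mt. FLAG-Lhx1-mt replicate 1 stood above the other 3 embryos. The log2 fold was -0.34 ± 0.18 (SE, edgeR adjusted p = 0.288) and -0.13 without FLAG-Lhx1-mt replicate 1. Klf7 (ENSMUSG00000025959, chromosome 1 at 64029447 to 64122282), a factor of neuronal differentiation, differed least among the activators, with 8.51 and 8.60 CPM in FLAG-Lhx1 and 8.89 and 9.36 CPM in FLAG-Lhx1-mt (log2 fold -0.09 ± 0.24, SE, edgeR adjusted p = 0.868). Exons of other genes cover 39.4% of the exon bases of Klf7, most of them the exons of Gm26649 on the other strand, and Gm26649 had 0 counts in all 4 embryos. The level of Klf7 is therefore uncertain.

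Of the CtBP-binding repressors, Klf12 (ENSMUSG00000072294, chromosome 14 at 99870632 to 100284679) had 17 and 12 counts in FLAG-Lhx1 against 28 and 57 counts in FLAG-Lhx1-mt. In CPM these were 0.649, 0.611, 1.20 and 1.82. The groups did not overlap, and the FLAG-Lhx1-mt embryos were further apart than the FLAG-Lhx1 embryos. The Poisson intervals of FLAG-Lhx1, 0.378 to 1.04 and 0.3155 to 1.07 CPM, met that of FLAG-Lhx1-mt replicate 1 (0.799 to 1.74 CPM). They did not meet that of FLAG-Lhx1-mt replicate 2 (1.38 to 2.36 CPM). The log2 fold of -1.26 ± 0.55 (SE) did not pass (edgeR adjusted p = 0.196). Klf3 (ENSMUSG00000029178, chromosome 5 at 64803388 to 64832901) differed more inside a group than between groups, with 1.83 and 3.51 CPM in FLAG-Lhx1 against 3.05 and 3.04 CPM in FLAG-Lhx1-mt. The Poisson intervals of both FLAG-Lhx1 embryos, 1.35 to 2.43 and 2.73 to 4.44 CPM, did not meet. Its log2 fold was -0.20 ± 0.39 (SE, edgeR adjusted p = 0.822) and turned to 0.18 without FLAG-Lhx1 replicate 1.

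The SIN3A-binding factors showed no call. Klf9 (ENSMUSG00000033863, chromosome 19 at 23141226 to 23168134), which responds to glucocorticoid and thyroid hormone, had 8.36 CPM in FLAG-Lhx1 replicate 1, 4.02 CPM in FLAG-Lhx1 replicate 2, and 8.93 and 8.95 CPM in FLAG-Lhx1-mt. FLAG-Lhx1 replicate 2 stood apart, with a Poisson interval of 3.18 to 5.01 CPM, and the other 3 embryos were nearly level. The log2 fold of -0.52 ± 0.31 (SE, edgeR adjusted p = 0.364) shrank to -0.09 without that embryo.

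Klf10 (ENSMUSG00000037465, chromosome 15 at 38291463 to 38300706), an early gene of TGF-beta signalling, had 14.8 and 11.5 CPM in FLAG-Lhx1 against 13.4 CPM in each FLAG-Lhx1-mt embryo (log2 fold -0.03 ± 0.22, SE, edgeR adjusted p = 0.960; 0.02 with upper-quartile scaling). Klf13 (ENSMUSG00000052040, chromosome 7 at 63886351 to 63938915), known for its part in T cells and heart, had 25.1 and 15.9 CPM in FLAG-Lhx1 against 23.3 and 16.7 CPM in FLAG-Lhx1-mt. In both groups replicate 1 was the higher embryo, and the groups overlapped (log2 fold 0.04 ± 0.24, SE, edgeR adjusted p = 0.948; -0.02 with no count filter). In all, 7 of the 10 members did not overlap between the groups, 2 higher and 5 lower in FLAG-Lhx1; of all tested genes 52.2% did not overlap, 26.4% higher and 25.8% lower.

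**Figure D2:**
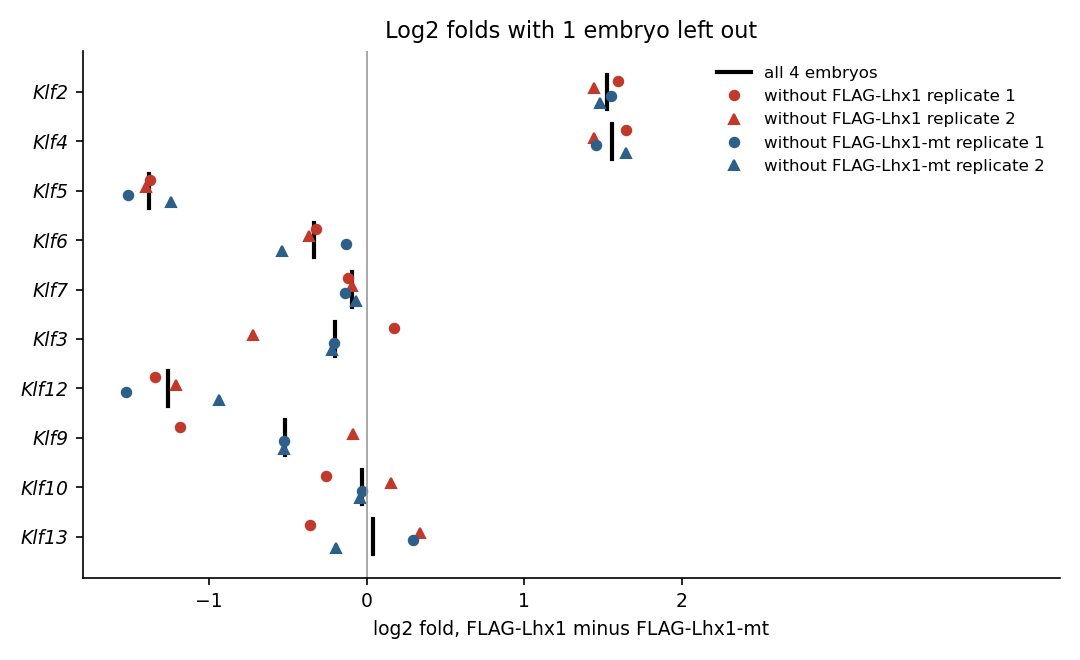
Log2 folds of the 10 Klf genes (x axis) with all 4 embryos (black bars) and with each embryo left out (symbols). Klf2, Klf4, Klf5 and Klf12 stay on their side of 0, with Klf4 between 1.44 and 1.65, while Klf9 spans -1.18 to -0.09 and Klf3, Klf10 and Klf13 fall on both sides.

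Levels of different genes were compared as CPM per kilobase of exon (CPM per kb). Klf6 was highest, with a mean of 8.55 over the 4 embryos (7.33 to 10.9), above Klf10 at 3.17 (2.74 to 3.53) with no overlap of ranges. Klf13 followed at 2.69 (2.12 to 3.33), and its range overlapped that of Klf10. Klf9 at 1.57, Klf4 at 1.32 and Klf7 at 1.09 CPM per kb came next, and their ranges overlapped from one to the next. Klf2 at 0.312, Klf3 at 0.254, Klf5 at 0.190 and Klf12 at 0.153 CPM per kb formed a low group whose neighbours overlapped, and Klf7 and Klf2 did not. The order of these means over both groups did not hold inside each group. Klf2 ranked 7 of 10 in both FLAG-Lhx1 embryos (0.434 and 0.496 CPM per kb) and lowest in both FLAG-Lhx1-mt embryos (0.163 and 0.156 CPM per kb). Klf4, at 1.80 and 2.14 CPM per kb, lay above Klf7 and Klf9 in both FLAG-Lhx1 embryos, and at 0.620 and 0.713 CPM per kb below both genes in FLAG-Lhx1-mt. In FLAG-Lhx1 replicate 1 Klf9 was nearly level with Klf4, at 1.74 CPM per kb, and the level of Klf7 is uncertain.

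The sum over the 10 genes was 19.6 and 17.7 CPM per kb in FLAG-Lhx1 against 21.6 and 18.4 CPM per kb in FLAG-Lhx1-mt, with overlap of the groups. Klf4 made up 9.21% and 12.1% of that sum in FLAG-Lhx1 and 2.87% and 3.88% in FLAG-Lhx1-mt. Klf6 made up 37.4% and 44.0% against 50.3% and 44.8%. Exon length is that of all annotated exons of a gene, so members with many alternative exons, such as Klf3, are set low on this scale. Klf7, with 39.4% of its exon bases shared with other genes, may be set low too, and its rank is uncertain.

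**Figure D3:**
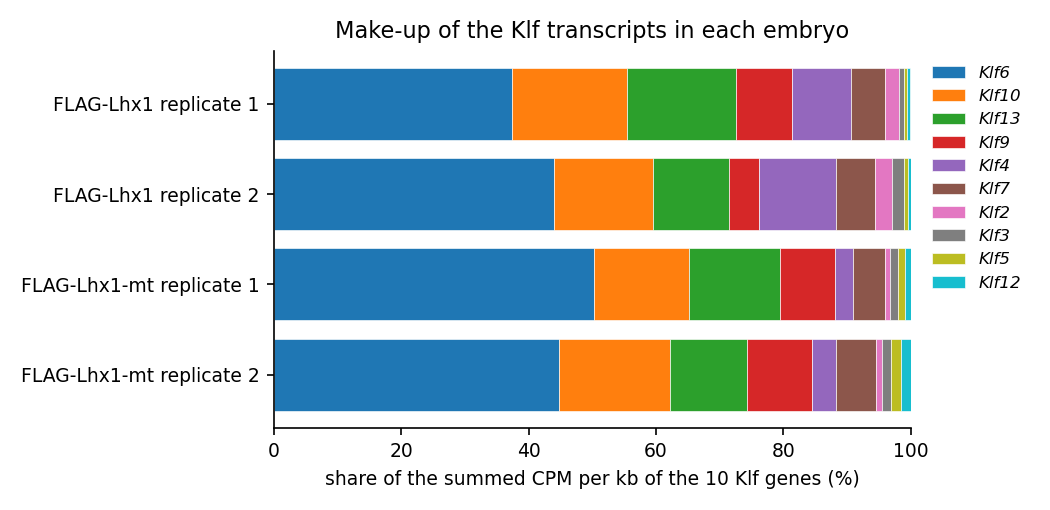
Share (%) of each Klf gene in the summed CPM per kb of the 10 genes, one bar per embryo. Klf6, Klf10 and Klf13 fill most of each bar, and Klf4 takes 9.21% and 12.1% in FLAG-Lhx1 against 2.87% and 3.88% in FLAG-Lhx1-mt.

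The rest of the family gave no call. Of 7 further Klf genes, 5 were tested; by edgeR 0 were called, 0 had an unadjusted p under 0.05, and DESeq2 and limma-voom, which called 9.15% and 6.44% of the genes to which they gave an adjusted p, called none of them. Klf11, a SIN3A-binding factor, had the one positive log2 fold (0.46 ± 0.27, SE, edgeR adjusted p = 0.339). Klf8, the third CtBP-binding factor, had 13.5 and 9.16 CPM in FLAG-Lhx1 against 16.96 and 13.1 CPM in FLAG-Lhx1-mt, and the groups overlapped (log2 fold -0.40 ± 0.24, SE, edgeR adjusted p = 0.373). Klf15, a factor of metabolism and heart, was at -0.55, Klf16 at -0.41 and Klf14 at -0.06 on the log2 scale. Klf14 was at 0.02 with the replicate number as a block and at 0.11 with offsets for GC content and length. Klf1 and Klf17 stayed below the count filter.

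SP factors share the zinc fingers and the GC-rich sites of KLFs. Of 9 Sp genes 8 were tested, 2 rose, none fell and 6 did not pass, where 6.17% of all tested genes were called and 2.62% were called higher; Sp6 had 0 counts in all embryos. Sp8, a gene of the anterior neural ridge, limb bud and tail bud, had 173 and 165 CPM in FLAG-Lhx1 against 118 and 83.1 CPM in FLAG-Lhx1-mt (log2 fold 0.75 ± 0.17, SE, edgeR adjusted p = 0.0159). Sp3, a ubiquitous factor, had 108 and 97.6 CPM against 70.1 and 60.1 CPM (log2 fold 0.66 ± 0.15, SE, edgeR adjusted p = 0.0176). For both genes the groups did not overlap. The call of Sp8 was lost without FLAG-Lhx1-mt replicate 2 (0.50), and Sp3 was not called without FLAG-Lhx1 replicate 1 (0.56) or with offsets for GC and length (0.48).

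The ubiquitous Sp1 (-0.02, or 0.03 with upper-quartile scaling), Sp2 (-0.71), the neural Sp4 (0.33), the WNT target Sp5 (-0.28) and Sp9 (1.18) were not called. Sp7, the osteoblast factor osterix, had 12 and 10 counts in FLAG-Lhx1 and 0 and 4 counts in FLAG-Lhx1-mt, and was not called (edgeR adjusted p = 0.140).

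**Figure D4:**
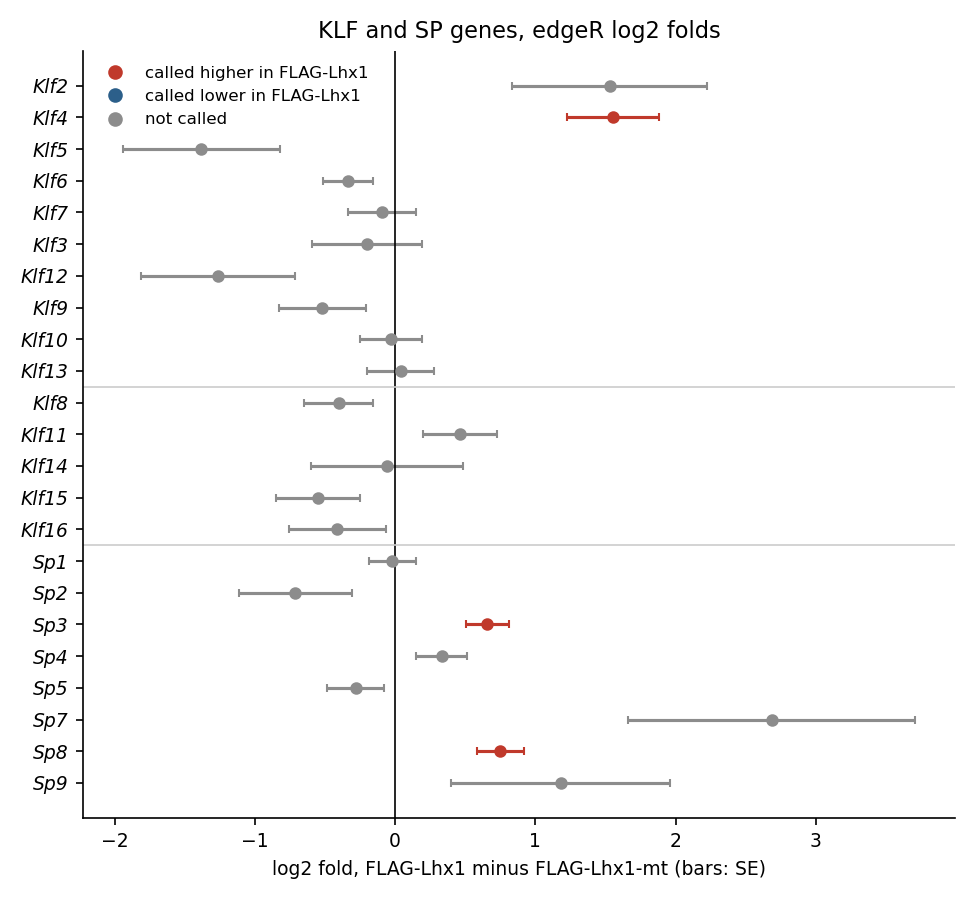
Log2 folds with SE (x axis) of the 10 Klf genes, 5 further tested Klf genes and 8 tested Sp genes, separated by lines; red marks genes called higher in FLAG-Lhx1 and grey genes not called. Klf4, Sp3 and Sp8 are the called genes, and no KLF or SP gene was called lower.

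Of 15 genes for proteins that KLFs recruit or that act on KLFs, 14 did not pass in edgeR and 1 was called lower. Of all tested genes 6.17% were called and 3.55% were called lower, so the count is close to that share. The called gene, Hdac1, encodes a histone deacetylase of SIN3A complexes. It fell from 111 and 67.0 CPM in FLAG-Lhx1-mt to 51.0 and 45.7 CPM in FLAG-Lhx1 (log2 fold -0.88 ± 0.20, SE, edgeR adjusted p = 0.0171). The highest value was that of FLAG-Lhx1-mt replicate 1, and without it the log2 fold was -0.48 and not called. Hdac2, the other such deacetylase and the most abundant gene of the list, had 303 and 257 CPM in FLAG-Lhx1 against 179 and 213 CPM in FLAG-Lhx1-mt, with no overlap, and did not pass in edgeR (log2 fold 0.51 ± 0.15, SE, edgeR adjusted p = 0.0561). DESeq2 (adjusted p = 0.0377) and limma-voom (adjusted p = 0.0459) called it. The median log2 fold of the list was 0.03. The 19 tested genes of signals that act on Klf genes covered LIF and STAT3, ERK and ERK5, MEF2, SRF, TGF-beta and nuclear receptors. Of these, edgeR, DESeq2 and limma-voom each called 0, and 4 had an unadjusted p under 0.05 in edgeR, all higher. Of all 15822 tested genes 21.3% had such a p in either direction, and 1573 had it and were higher. The smallest p-values were those of the TGF-beta receptor genes Tgfbr1 (0.52 ± 0.16, SE, edgeR adjusted p = 0.0622) and Tgfbr2 (1.13 ± 0.40, SE, edgeR adjusted p = 0.110). Tgfbr1 was called with upper-quartile scaling (0.57) and without FLAG-Lhx1-mt replicate 1 (0.53).

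Genes that KLF2, KLF4 and KLF5 regulate in mouse ESCs moved both ways. Of 10 tested, Sox2 (1.05 ± 0.23, SE, edgeR adjusted p = 0.0144) rose. Pou5f1 (-1.76 ± 0.23, SE, edgeR adjusted p = 0.000487) and Nanog (-1.5 ± 0.27, SE, edgeR adjusted p = 0.00494) fell, and 7 did not pass. Among the 7, Esrrb (1.95) and Fbxo15 (1.30) were higher without overlap and had an unadjusted p under 0.05 in edgeR. Of all tested genes 21.3% had such a p, and 6.17% were called, 2.62% higher and 3.55% lower. The median log2 fold of the 10 was -0.19. The call of Sox2 was lost without FLAG-Lhx1 replicate 1 (0.75). Of 12 epithelial and cell cycle targets, Cdkn1c, which encodes the cell cycle inhibitor p57, rose from 19.4 and 14.6 CPM in FLAG-Lhx1-mt to 47.7 and 46.7 CPM in FLAG-Lhx1 (log2 fold 1.48 ± 0.18, SE, edgeR adjusted p = 0.000289). The epithelial adhesion gene Epcam fell (-0.67 ± 0.18, SE, edgeR adjusted p = 0.0386), and the other 10 did not pass (median of the 12, -0.12). Epcam was no longer called when replicate 2 of either group was left out (-0.44 and -0.46), under upper-quartile scaling (-0.62) or with the offsets for GC and length (-0.46).

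Immediate early genes, which cells switch on within minutes of a stimulus, were examined because Klf2, Klf4, Klf6 and Klf10 can respond with them. Of 16 tested, 2 rose, none fell and 14 did not pass, again beside 2.62% of all tested genes called higher, and the median log2 fold was 0.46. Jun was called by limma-voom (log2 fold 1.96, adjusted p = 0.0497) and not by edgeR (adjusted p = 0.0640) or DESeq2. Fos had 22.1 and 23.0 CPM in FLAG-Lhx1 against 2.02 and 1.15 CPM in FLAG-Lhx1-mt (log2 fold 3.85 ± 0.29, SE, edgeR adjusted p = 2.78e-06). Egr1 had 3.43 and 4.68 CPM against 1.46 and 0.895 CPM (log2 fold 1.79 ± 0.42, SE, edgeR adjusted p = 0.0196), and without FLAG-Lhx1 replicate 2 it was not called (1.57). The summed level of the 19 listed genes was 106 to 114 CPM in FLAG-Lhx1 and 80.3 to 83.8 CPM in FLAG-Lhx1-mt. Fos carried most of that gap: without it the sums were 92.0 and 83.4 CPM against 78.3 and 82.6 CPM. Their part in the rise of Klf4 was not tested.

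**Figure D5:**
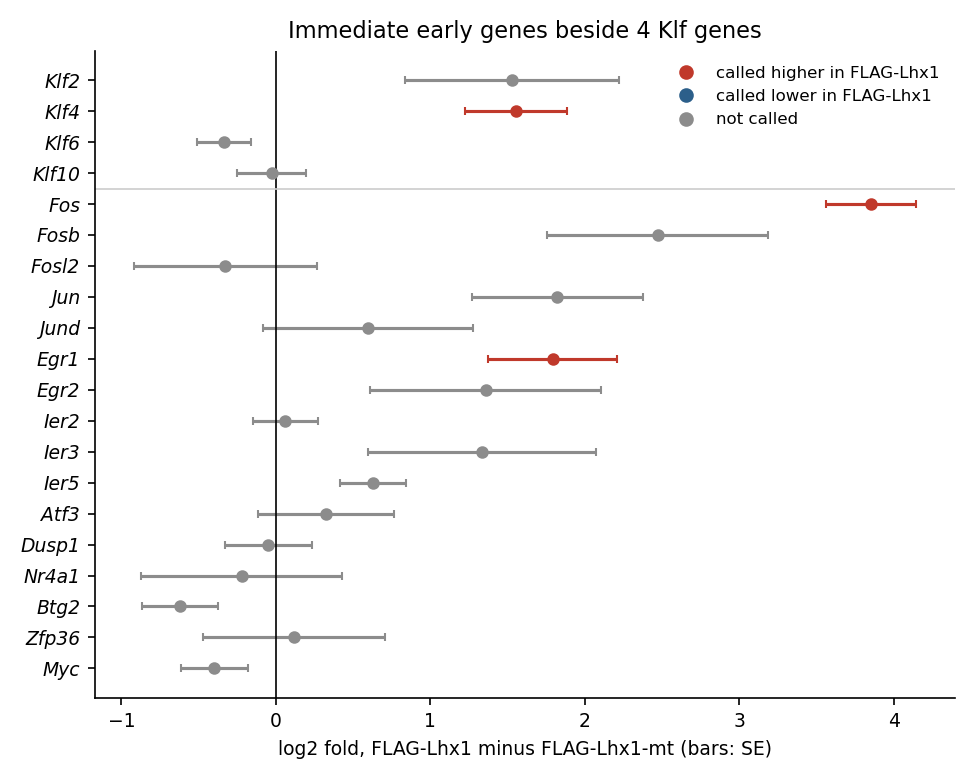
Log2 folds with SE (x axis) of Klf2, Klf4, Klf6 and Klf10 (top) and of the 16 tested immediate early genes (bottom); red marks genes called higher in FLAG-Lhx1. Fos at 3.85 and Egr1 at 1.79 are called beside Klf4 at 1.56, while Klf6 and Klf10 lie at -0.34 and -0.03.

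The whole embryo mixes cell types, and in such samples fewer cells of a type and less RNA per cell cannot be told apart. Calls in the marker lists stand beside 2.62% of all tested genes called higher and 3.55% called lower. Of 10 markers of the anterior neuroectoderm 6 rose in FLAG-Lhx1 (Hesx1 at 2.80, Fezf1 at 4.97 and Six3 at 2.42 on the log2 scale among them) and 4 did not pass, Otx2 among them at -0.23. Their summed level was 206 to 225 CPM against 75.7 to 112 CPM, and without Hesx1, which had 135 and 121 CPM against 13.2 and 23.2 CPM, it was 90.5 and 85.4 CPM against 62.5 and 88.7 CPM, with overlap. Markers of visceral endoderm were lower, with 5 of 10 called (among them Apoa1 and Apoa4 at -1.30 each) and 1936 to 2177 CPM against 3242 to 3813 CPM. Of 8 surface ectoderm markers, Wnt6 (2.74) and Tfap2a (1.37) were called higher and none was called lower. The list pointed both ways, with 4 log2 folds above 0 and 4 below. Krt7 was at -0.67, with no overlap of the groups and an unadjusted p under 0.05 in edgeR. Tfap2a was no longer called when either FLAG-Lhx1 embryo or FLAG-Lhx1-mt replicate 2 was left out (1.04 to 1.49) or with the offsets for GC and length (1.32). Summed levels of the surface ectoderm list were 520 to 531 CPM against 546 to 631 CPM, without overlap, with most of each sum from Krt8 and Krt18.

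Markers of endothelium, where Klf2 is known to act, gave 0 calls among 5 tested by edgeR, with 1 unadjusted p under 0.05 (Cldn5 was at 0 in FLAG-Lhx1 replicate 2), and summed to 20.3 to 20.6 CPM against 18.2 to 23.2 CPM. Most of that sum was Kdr, without which it was 4.39 and 4.88 CPM against 2.06 and 4.28 CPM. The median log2 fold of the tested markers was 0.91. Pecam1 (1.63), Cdh5 (1.19), Esam (0.91) and the untested Emcn (2 to 8 counts per embryo) were higher in FLAG-Lhx1 without overlap of the groups. Kdr (-0.15) and the untested Cldn5 were lower without overlap. Of all tested genes 26.4% were higher without overlap and 25.8% lower. Markers of extraembryonic ectoderm and trophoblast, where Klf5 is known to act, gave 0 calls among 8 tested. Of these, 3 had an unadjusted p under 0.05 in edgeR, all higher in FLAG-Lhx1, among them Esrrb, also in the ESC list. Of all 15822 tested genes, 1573 had such a p and were higher. All 8 log2 folds were above 0, with a median of 0.83. Of the 10 listed, 6 were higher and 1 lower without overlap. The list summed to 10.8 to 15.5 CPM against 7.04 to 7.89 CPM, without overlap, and Tpbpa was at 0 in both FLAG-Lhx1 embryos. Of the maternal decidua list 6 of 8 genes were tested and 0 called, with 1 unadjusted p under 0.05 (14.0 to 17.7 CPM against 16.9 to 17.9 CPM; Lum was at 0 in all but FLAG-Lhx1-mt replicate 2). Of 8 markers of primitive erythroid cells 3 were tested, and edgeR called 0 with 0 unadjusted p under 0.05 (3.66 to 4.43 CPM against 3.18 to 6.90 CPM); Hbb-bh1 was at 0 in 2 embryos and Hba-x in 3. DESeq2 and limma-voom also called 0 of these 4 lists. The part of these cell types in the Klf values was not tested.

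By the distance of log2 CPM centred on each gene's own mean, over the 4 embryos and 8767 protein-coding genes whose mean reached 5 CPM, the genes closest to Klf4 were Limch1 (distance 0.11), Tgfb2 (0.15), Reln (0.19), Colec12 (0.21) and Bmf (0.24). Limch1 had 7.10 and 8.24 CPM in FLAG-Lhx1 against 2.28 and 2.56 CPM in FLAG-Lhx1-mt. Tgfb2, which encodes a TGF-beta ligand, had 16.95 and 18.6 CPM against 5.28 and 5.91 CPM. With 4 embryos many genes share such a pattern, and the order is a description.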

How the data were processed

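Whole-number counts per Ensembl gene were used as deposited, one file per embryo. The submitters' processing notes name STAR, featureCounts, Subread, GRCm38 and mm10; no source used here gives versions, the annotation release or the strand setting. Per the labels' protocols, libraries followed Geo-seq, with 10 cycles of cDNA pre-amplification, 0.5 ng of cDNA per Nextera XT library and 100 bp paired reads. Amplified copies of a molecule are therefore counted separately. Symbols, positions, exon lengths and GC contents came from GENCODE vM21 (GRCm38), which held 37693 of the 39179 IDs.

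Genes were filtered with filterByExpr (minimum count 10, total 15), leaving 15822, and libraries were scaled by TMM. The quasi-likelihood F test of edgeR 4.0.16 (in R 4.3.3) was run with group as the only term, adjusted over all tested genes by Benjamini-Hochberg; calls had an adjusted p under 0.05. The SE was obtained by dividing the log2 fold by the root of F. Variance rested on 2 residual and 13.4 prior degrees of freedom. With 2 embryos a group, the smallest two-sided p of an exact permutation test on 1 gene is 0.333. The labels say that RNA came from single embryos, and litters are not given. The p-values therefore rest on spread between these embryos, most of it shared over genes through the prior degrees of freedom. The replicate libraries differed beyond sampling noise (chi-square per degree of freedom 48.0 for the FLAG-Lhx1 pair, 31.0 for the FLAG-Lhx1-mt pair), and each counted as 1 sample.

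The members, gene lists and rules were chosen with earlier results of these data known. Named were all listed members, the other tested Klf and Sp genes, up to 6 called genes of each list by p (4 for marker lists) or the 2 smallest p where none was called, and the 5 genes nearest to a called member. The procedure was also run on simulated counts drawn with the spread fitted to these data. The simulation held no differences of litter or share of host cells, so it does not measure how reliable calls are in these embryos. Alternatives were upper-quartile scaling, DESeq2 1.42.0, limma-voom (limma 3.58.1), no count filter, the newer form of edgeR's test, offsets for GC and length (loess, span 0.3), the replicate number as a block, and each embryo left out.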

Additional observations from a re-analysis of the deposited data

How the results depend on the processing

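Among the 10 listed genes, Klf4 was the one called in each of the alternatives that used all 4 embryos, with log2 folds of 1.49 to 1.73 and adjusted p = 0.000269 to 0.0141 by edgeR, DESeq2 or limma-voom. With 1 embryo left out, 0 to 1 listed genes were called, and the 0 came without FLAG-Lhx1 replicate 2. The number of all called genes was 976, and 521 to 1648 with 1 embryo left out: 628 and 521 without FLAG-Lhx1 replicates 1 and 2, and 1648 and 1553 without FLAG-Lhx1-mt replicates 1 and 2. It was 801 with the GC and length offsets and 1447 with no count filter. Over the tested genes the log2 folds correlated with exon length at 0.219 and with GC content at -0.163 (Spearman rank correlation).

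With all 4 embryos, the folds that changed sign were those of uncalled genes near 0: Klf10 and Sp1 with upper-quartile scaling (0.022 and 0.0316), Klf13 with no count filter (-0.0165), and Klf14 with the replicate block (0.0248), the GC and length offsets (0.11) and both (0.19). With 1 embryo left out, Klf3 ran from -0.72 to 0.18, Klf10 from -0.26 to 0.15, Klf13 from -0.36 to 0.34, Klf14 from -0.48 to 0.56 and Sp1 from -0.29 to 0.20; the cause was not tested.

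The replicate 1 minus 2 differences of the groups correlated at 0.0156 across genes, which gave no sign of pairing by replicate number. Litters are not given, so whether the replicates were paired is not known. A replicate block gave 1138 calls, or 1193 with the GC and length offsets, and 1 listed gene in each. Depth limits Klf2, Klf5 and Klf12, which had 7 to 57 counts per embryo. Visceral endoderm markers called numbered 5 by edgeR and 8 by DESeq2, and co-regulators 1 and 2.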

Other observations

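Klf1, the erythroid Kruppel-like factor, was below the count filter as a group value but not in every embryo. It had 1.25 CPM in FLAG-Lhx1-mt replicate 2 against 0.0859 CPM in FLAG-Lhx1-mt replicate 1 and 0.153 and 0.102 CPM in FLAG-Lhx1 replicates 1 and 2. The adult-type globin gene Hba-a1 had 2.43 CPM in the same embryo and 0.043 to 0.305 CPM in the other 3. The decidual prolactin gene Prl8a2 had 1.66 CPM there and 0.0763 to 0.153 CPM in the other 3. Of the embryonic globin genes, Hbb-bh1 and Hba-x had at most 0.0763 CPM in any embryo, and Hbb-y had 0.128 CPM in FLAG-Lhx1-mt replicate 2, 0.153 CPM in FLAG-Lhx1 replicate 2 and 0 in the other 2. These genes were picked after their values were seen, and no test was made.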
